A study of Mus musculus with 8 samples.

Results

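The 10 genes described here, *Pou2f3*, *Gfi1b*, *Gnat3*, *Gng13*, *Plcb2*, *Trpm5*, *Il25*, *Chat*, *Dclk1*, and *Avil*, are the usual markers of tuft cells and were chosen by symbol from the 55450 genes of the table. They were followed across 8 RNA-sequencing libraries of thymic epithelial cells (TECs). CD45-EpCAM+ TECs were sorted on embryonic day 17 (E17) from RANK-Venus/CCL21a-tdTomato mouse embryos, so every group carried both reporters, a tdTomato knocked into *Ccl21a* and a Venus transgene driven by *Tnfrsf11a*, the gene that encodes RANK. The groups were CCL21+RANK- TECs with 3 libraries, CCL21-RANK+ TECs with 3, and CCL21-RANK- TECs with 2, called CCL21+, RANK+, and double-negative TECs below, and the CCL21+ and double-negative groups together are the RANK- groups. The reporters mark cells in which these promoters are active and do not by themselves separate a tuft cell from another RANK+ cell. How many embryos stand behind a library is not given in the sources used here.

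Tuft cells are chemosensory epithelial cells of mucosal surfaces, and a tuft-like population is also found among medullary TECs (mTECs) of the postnatal thymus. *Pou2f3* encodes the POU-domain transcription factor on which their formation depends. Ligands are sensed through the cascade known from taste cells, in which a G protein with the gustducin alpha subunit (*Gnat3*) and a gamma subunit (*Gng13*) activates phospholipase C beta 2 (*Plcb2*), and the calcium released opens the cation channel TRPM5. Activated tuft cells release interleukin-25, acetylcholine, and lipid mediators.

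The library totals were 59677315, 46003128, and 55116911 counts in the CCL21+ group, 57286762, 50146730, and 42751839 in the RANK+ group, and 67451440 and 71625282 in the double-negative group. Levels are given as RPKM, counts scaled to the library total and to the summed exon length of the gene, so that genes of different length can be compared. A difference was called when the adjusted p-value of the edgeR quasi-likelihood test was under 0.05, the fold change over 1.5, and the mean of the higher group over 1 RPKM. The RANK+ group enters 2 of the 3 comparisons, and those are therefore not independent of each other.

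The genes of both reporters were highest in the group named for each, but neither was confined to it. *Ccl21a* was at 561, 346, and 305 RPKM in the CCL21+ libraries, at 152, 95.9, and 78.2 RPKM in the RANK+ libraries, which were sorted as CCL21-, and at 6.88 and 8.87 RPKM in the double-negative libraries. It was called 12.6-fold higher in RANK+ than in double-negative TECs (adjusted p = 2.49e-05 by edgeR), so the CCL21- label of the RANK+ group does not mean that this transcript was absent. *Tnfrsf11a* was at 111, 93.1, and 107 RPKM in RANK+, between 8.78 and 10.3 RPKM in CCL21+, and at 2.62 and 2.26 RPKM in double-negative libraries, and it was called 3.88-fold higher in CCL21+ than in double-negative TECs (adjusted p = 8.7e-05 by edgeR). *Epcam* was between 49.5 and 156 RPKM and *Foxn1*, the transcription factor of TEC identity, between 50.7 and 105 RPKM in all 8 libraries. *Aire*, the regulator of self-antigen expression in mTECs, was at 131, 94.1, and 114 RPKM in the RANK+ libraries and did not exceed 0.81 RPKM elsewhere. *Ptprc*, which encodes CD45, was between 0.177 and 0.576 RPKM in RANK+ and between 0.0351 and 0.193 RPKM in the other libraries. It was 8.08-fold higher in RANK+ than in double-negative TECs (adjusted p = 0.00304 by edgeR) but not called, as its mean was under 1 RPKM. The CCL21+ libraries stood apart in the parathyroid genes: the summed level of *Pth*, *Gcm2*, *Casr*, and *Chga* was 7122, 1750, and 1955 RPKM there and between 11.1 and 24.9 RPKM in the other 5 libraries.

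The 10 genes did not all follow the same groups. Of the 10 genes, 6 (*Gfi1b*, *Gnat3*, *Gng13*, *Plcb2*, *Trpm5*, and *Avil*) were called higher in RANK+ than in CCL21+ TECs, where 15.4% of all 21451 tested genes were called higher. *Pou2f3* and *Dclk1* were called lower there, as were 15.4% of all tested genes. Against double-negative TECs, 7 were called higher in RANK+ TECs (the same 6 and *Dclk1*) against 14.4% of tested genes. The 6 were thus called higher than both other groups, as were 11.8% of all tested genes. Between CCL21+ and double-negative TECs, *Pou2f3* and *Dclk1* were called higher in the former, against 4.35% of tested genes. *Il25* had too few counts to be tested. All 3 RANK+ libraries lay above all 3 CCL21+ libraries in 8 of the 10 genes, as in 36.9% of all tested genes, and below them in *Pou2f3*, as in 22.8%. They lay above both double-negative libraries in 9 of the 10, as in 38.8%. The CCL21+ libraries lay above the double-negative libraries in *Pou2f3*, *Dclk1*, and *Plcb2*, as in 18.4%. The median log2 fold change of the 9 tested genes was 3.61 against CCL21+ and 4.01 against double-negative TECs, beside 0.11 and 0.06 over all tested genes. Genes such as *Gfi1b* had enough counts to be tested through the RANK+ libraries only, which draws such medians upward. In bulk libraries, fewer tuft-like cells and less RNA per cell cannot be told apart.

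**Figure D1:**
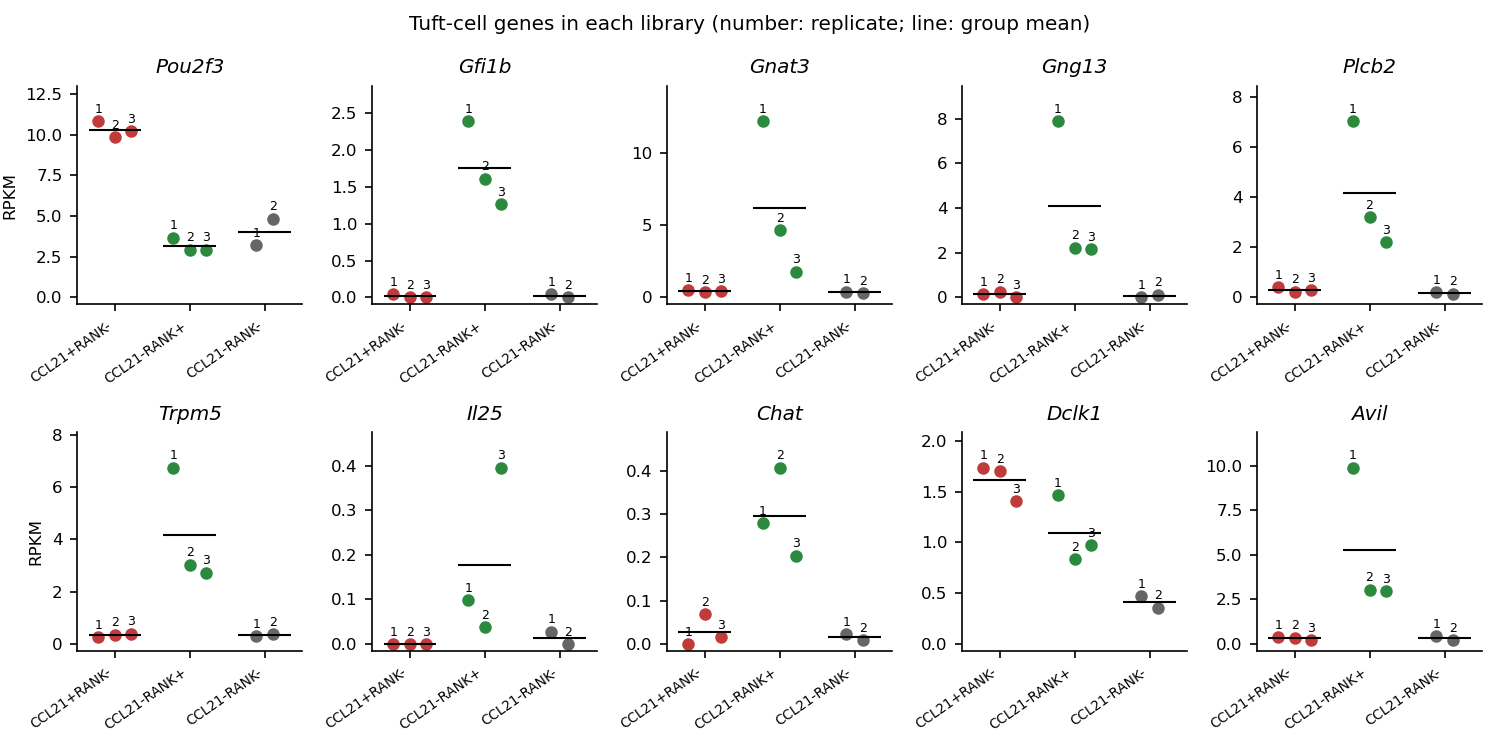
RPKM (y axis, a separate linear scale for each gene) of the 10 tuft-cell genes in the 8 libraries, grouped on the x axis by sorted population; each point is a library with its replicate number, and the line is the group mean. *Pou2f3* is highest in the 3 CCL21+ libraries (9.83 to 10.8), while *Gnat3*, *Gng13*, *Plcb2*, *Trpm5*, and *Avil* are highest in the 3 RANK+ libraries, each with replicate 1 on top.

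The regulators come first. *Pou2f3* (chr9:43123939-43210369, minus strand, mm10) was at 10.8, 9.83, and 10.2 RPKM in the CCL21+ libraries. It was at 3.67, 2.93, and 2.94 RPKM in the RANK+ libraries. In the double-negative libraries it was at 3.21 and 4.83 RPKM. All 3 CCL21+ libraries were above all 5 others, and the RANK+ and double-negative libraries overlapped. Its log2 fold change in RANK+ against CCL21+ TECs was -1.82 ± 0.15 (SE), which is 3.53-fold lower (adjusted p = 8.12e-06, edgeR quasi-likelihood test with Benjamini-Hochberg adjustment). CCL21+ exceeded double-negative TECs 2.58-fold (adjusted p = 0.00115 by edgeR). The log2 fold change of RANK+ against double-negative TECs, -0.45 ± 0.16, was under the fold threshold, and its adjusted p by edgeR, 0.0431, was above 0.05 in 14 of 17 other settings (0.024 to 0.436).

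The highest library of *Pou2f3* exceeded its lowest 1.10-fold within the CCL21+ group, 1.26-fold within the RANK+ group, and 1.5-fold within the double-negative group, where *Trpm5* differed 1.30-fold and *Gnat3* 1.32-fold. The parathyroid list differed 4.07-fold between the highest and lowest CCL21+ library, and its part in the level of *Pou2f3* was not tested. *Pou2f3* is also expressed in stratified epithelium such as epidermis, as background. The 8 named genes whose log2 CPM correlated best with that of *Pou2f3* over the 8 libraries were *Stat2*, *Trp53bp2*, *Sp100*, *Bst2*, *Abhd6*, *Kctd15*, *Parp9*, and *Bcl3*, with Pearson's r from 0.987 to 0.998. *Stat2*, a signal transducer of interferon receptors, averaged 18.4 RPKM in CCL21+, 6.46 in RANK+, and 7.88 in double-negative TECs. None of the tuft-cell genes was among these 8, and the correlations describe 3 groups with at most 3 libraries each.

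*Gfi1b* (chr2:28609450-28621982, minus strand), which encodes a zinc-finger repressor found in tuft cells and also in erythroid and megakaryocytic cells, showed the opposite order. It was at 2.39, 1.61, and 1.27 RPKM in the RANK+ libraries, from 251, 148, and 99 counts. The 3 CCL21+ libraries held 5, 0, and 0 counts and the double-negative libraries 6 and 0. No library outside the RANK+ group exceeded 0.0486 RPKM, so the RANK+ libraries stood clear of both RANK- groups, which overlapped each other. The log2 fold change was 6.51 ± 1.16 against CCL21+ (adjusted p = 0.00112 by edgeR) and 5.97 ± 1.31 against double-negative TECs (adjusted p = 0.00439 by edgeR). These sizes rest on 5 and 6 counts. Without CCL21+ replicate 1 the former was 10.4 and without replicate 3 it was 5.92 (adjusted p = 0.00115 and 0.00421 by edgeR). Without double-negative replicates 1 and 2 the latter was 10.4 and 4.94. Both values of 10.4 stand over libraries with no count and are therefore no measure of size.

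Because *Gfi1b* is also a gene of blood cells, megakaryocyte and erythroid markers are given beside it. Of 5 megakaryocyte markers, 2 (*Ppbp* and *Gp9*) were called higher there than in both other groups, beside 11.8% of all tested genes. The summed level of the list was 13.4, 1.83, and 4.48 RPKM in RANK+ and at most 0.511 RPKM in the other libraries, led by *Gp9*. *Pf4* was at 1.09, 0.664, and 0.519 RPKM in RANK+ and at most 0.368 RPKM elsewhere. Its adjusted p by edgeR was 0.0113 against CCL21+ TECs, but its mean was under 1 RPKM. *Gp1ba*, a platelet receptor gene, had no count in 6 of the 8 libraries, and its only counts lay in RANK+ replicates 1 and 3 (0.18 and 0.0947 RPKM). For *Itga2b* the RANK+ libraries overlapped those of both other groups. Of 6 erythroid markers, 2 (*Klf1* and *Alas2*) were called higher than in CCL21+ TECs (15.4% of all tested genes), and 1 (*Klf1*) higher than in double-negative TECs, a share of 16.7% near the 14.4% of all tested genes. *Klf1*, an erythroid transcription factor gene, was at 2.00, 0.743, and 0.994 RPKM in RANK+ and at most 0.128 RPKM in the other libraries (adjusted p = 0.00369 and 0.0273 by edgeR), the same order of groups as *Gfi1b*. The erythroid sum, led by the beta globin gene *Hbb-bs*, was 5.46, 130, and 44.1 RPKM in CCL21+, 143, 233, and 239 RPKM in RANK+, and 365 and 44.9 RPKM in double-negative libraries. The part of megakaryocytic and erythroid RNA in the level of *Gfi1b* was not tested.

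The taste-signalling genes were high in the RANK+ group only. *Gnat3*, *Gng13*, *Plcb2*, and *Trpm5* were all called higher in RANK+ than in both other groups (11.8% of tested genes), and for none of them did a RANK+ library overlap another. Summed per library, they reached 33.9, 13.1, and 8.87 RPKM in RANK+ TECs, 1.32, 1.18, and 1.14 RPKM in CCL21+, and 0.917 and 0.954 RPKM in double-negative TECs. Each RANK- group had a mean near 1 RPKM for all 4 genes together, with 1.21 ± 0.0981 (SD, n = 3) and 0.935 ± 0.0262 (SD, n = 2). Between both RANK- groups, the adjusted p of these 4 genes by edgeR was between 0.364 and 1.

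*Gnat3* (chr5:17962549-18019834, plus strand) was at 12.2, 4.67, and 1.79 RPKM in the RANK+ libraries. In the CCL21+ libraries it was at 0.505, 0.351, and 0.44 RPKM, and in the double-negative libraries at 0.392 and 0.297 RPKM. The lowest RANK+ library was above every other library, but replicate 1 exceeded replicate 3 by 6.83-fold. The log2 fold change was 3.69 ± 0.62 against CCL21+ (adjusted p = 0.000787 by edgeR) and 4.01 ± 0.75 against double-negative TECs (adjusted p = 0.0017 by edgeR). Without RANK+ replicate 1 these were 2.84 and 3.16, both still called.

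*Gng13* (chr17:25717171-25719406, plus strand), the gamma subunit partner of gustducin, was at 7.88, 2.22, and 2.15 RPKM in the RANK+ libraries. It was at 0.152, 0.253, and 0.0235 RPKM in the CCL21+ libraries and at 0.0192 and 0.126 RPKM in the double-negative libraries. Replicate 1 of RANK+ stood above the other replicates, which lay close together, and no RANK+ library overlapped another group. The log2 fold changes were 4.65 ± 0.92 (adjusted p = 0.00204 by edgeR) and 5.62 ± 1.15 (adjusted p = 0.00295 by edgeR) against CCL21+ and double-negative TECs. The control levels rest on 17 and 8 counts, and leaving out single libraries moved the fold changes to between 3.82 (without RANK+ replicate 1) and 5.41 (without CCL21+ replicate 2) for the former. For the latter the lowest was 4.80 (without RANK+ replicate 1), and it was 4.89 and 7.31 without double-negative replicates 1 and 2. *Gng13* shares exonic sequence on the opposite strand with *Chtf18*, a replication factor gene that was also called higher in RANK+ TECs. *Chtf18* was at 5.20, 7.48, and 6.18 RPKM there, and its part in the level of *Gng13* was not tested.

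*Plcb2* (chr2:118707517-118728438, minus strand) was at 7.03, 3.21, and 2.20 RPKM in the RANK+ libraries. The CCL21+ libraries were at 0.417, 0.224, and 0.283 RPKM and the double-negative libraries at 0.213 and 0.15 RPKM. The 3 RANK+ libraries were again the highest. The CCL21+ libraries lay above the double-negative ones, a difference that was not called (log2 fold change 0.75 ± 0.47, adjusted p = 0.364 by edgeR). The enzyme gene was 12.2-fold higher in RANK+ than in CCL21+ TECs (adjusted p = 8.2e-05 by edgeR) and 20.5-fold higher than in double-negative TECs (adjusted p = 0.000112 by edgeR).

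*Trpm5* (chr7:143069153-143094642, minus strand) was at 6.74, 3.03, and 2.73 RPKM in the RANK+ libraries. It was at 0.251, 0.35, and 0.391 RPKM in the CCL21+ libraries and at 0.292 and 0.38 RPKM in the double-negative libraries. The libraries of both RANK- groups overlapped, and every RANK+ library was above them. It was 11.4-fold higher than in CCL21+ (adjusted p = 2.3e-05 by edgeR) and 11.3-fold higher than in double-negative TECs (adjusted p = 8.32e-05 by edgeR). The named genes closest to *Trpm5* over the 8 libraries were *Fermt1*, *Saa2*, *Prg3*, *Serpina12*, *Ifi30*, *Cep85*, *Hamp*, and *Dcpp1*, with Pearson's r from 0.994 to 0.997 of log2 CPM. Of these, *Hamp*, which encodes the liver hormone hepcidin, had no count in either RANK- group and averaged 2.88 RPKM in RANK+ TECs. As for *Pou2f3*, none of the other tuft-cell genes was among these closest genes, and the correlations describe the same few groups. *Tssc4*, which overlaps *Trpm5* on the opposite strand, was between 10.7 and 17.6 RPKM in all libraries and was called in no comparison.

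The members tied to what tuft cells release, *Il25* and *Chat*, had low transcript levels. *Il25* (chr14:54932695-54935837, plus strand), the cytokine that activates type 2 innate lymphoid cells, had 6, 2, and 18 counts in the RANK+ libraries. It had no count in the CCL21+ libraries and 2 and 0 counts in the double-negative libraries. The 26 counts of the RANK+ group lay mostly in replicate 3, the replicate in which each of the 4 taste-signalling genes was lowest. They amount to 0.173 CPM, at least 9.28-fold higher than the limit that 0 counts allow in CCL21+ TECs (3 counts over that group). With the counts of double-negative TECs at or under that limit no fold change is given, and such limits cover counting error only.

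*Chat* (chr14:32408203-32465989, minus strand), which encodes the enzyme that makes acetylcholine, was at 0.278, 0.407, and 0.204 RPKM in the RANK+ libraries. It was at 0, 0.0693, and 0.0154 RPKM in the CCL21+ libraries and at 0.0221 and 0.00891 RPKM in the double-negative libraries. The RANK+ libraries were above all others, the CCL21+ and double-negative libraries overlapped, and replicate 2 rather than replicate 1 was the highest RANK+ library. The log2 fold changes were 3.26 ± 1.08 and 4.10 ± 1.33, with adjusted p-values of 0.0284 in both comparisons by edgeR (0.00594 to 0.0835 and 0.00223 to 0.172 over other settings). Over the other settings these log2 fold changes ran from 2.65 to 5.19 and from 3.54 to 4.94. The low levels rest on 19 counts in CCL21+ and 10 counts in double-negative TECs. *Chat* was not called because its mean was under 1 RPKM. *Slc18a3*, the vesicular acetylcholine transporter gene that lies within the *Chat* locus, was at 1.29, 0.967, and 0.543 RPKM in RANK+ and at most 0.0307 RPKM elsewhere.

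The structural markers *Dclk1* and *Avil* differed from each other. *Dclk1* (chr3:55242364-55539068, plus strand), a microtubule-associated kinase, was at 1.74, 1.71, and 1.41 RPKM in the CCL21+ libraries. It was at 1.46, 0.838, and 0.974 RPKM in the RANK+ libraries and at 0.47 and 0.357 RPKM in the double-negative libraries. The CCL21+ and RANK+ libraries overlapped, and both groups were above the double-negative libraries. The log2 fold change of RANK+ against CCL21+ TECs was -0.71 ± 0.22 (adjusted p = 0.0208 by edgeR), and this call was lost in 6 of 17 other settings, where the adjusted p reached 0.0986. Against double-negative TECs, *Dclk1* was 2.39-fold higher in RANK+ (adjusted p = 0.00285 by edgeR) and 3.91-fold higher in CCL21+ TECs (adjusted p = 0.0017 by edgeR). Without RANK+ replicate 1, the log2 fold change against double-negative TECs was 1.05, and the call was lost because the mean level was then under 1 RPKM.

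*Avil* (chr10:127000709-127020994, plus strand) encodes advillin, an actin-binding protein of tuft cells and sensory neurons. It was at 9.88, 3.05, and 2.96 RPKM in the RANK+ libraries. The CCL21+ libraries were at 0.395, 0.358, and 0.203 RPKM and the double-negative libraries at 0.432 and 0.205 RPKM. The RANK+ libraries did not overlap the others, and both RANK- groups overlapped each other. *Avil* was 14.8-fold higher than in CCL21+ (adjusted p = 0.000292 by edgeR) and 14.7-fold higher than in double-negative TECs (adjusted p = 0.000971 by edgeR). On the log2 scale these are 3.89 and 3.88, which became 3.15 and 3.14 without RANK+ replicate 1, and the latter became 4.60 without double-negative replicate 1. *Tsfm*, whose exons overlap those of *Avil* on the opposite strand, was between 5.31 and 8.42 RPKM and was called in no comparison.

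Because *Avil* and *Chat* are also neuronal genes, a list of 7 neural markers is given beside them. Of these, 3 (*Tubb3*, *Prph*, and *Sox10*) were called higher in RANK+ than in both other groups, beside 11.8% of all tested genes, and the summed level was 15.6, 9.97, and 9.65 RPKM against at most 0.703 RPKM elsewhere. *Prph*, which encodes the intermediate filament peripherin, was the most abundant at 12.0, 7.23, and 6.61 RPKM. The neural sum was 1.61-fold higher in its highest than in its lowest RANK+ library. *Avil* differed 3.34-fold, *Slc18a3* 2.39-fold, and *Chat* 2.00-fold between these extremes. The part of neural RNA in the levels of *Avil*, *Chat*, and *Slc18a3* was not tested.

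**Figure D2:**
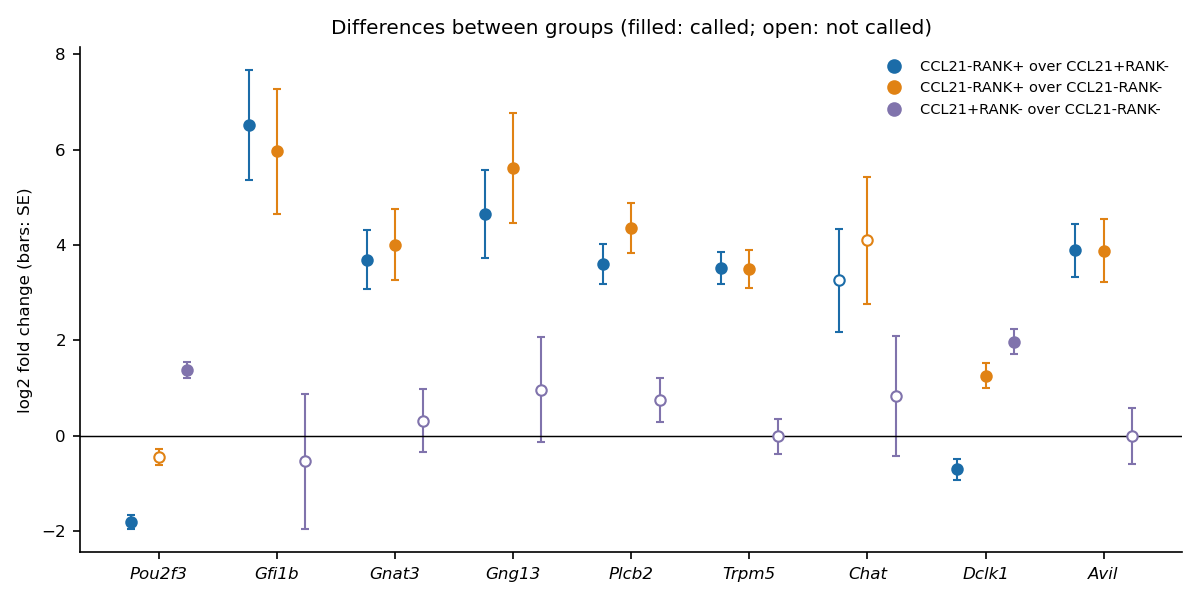
Log2 fold changes (y axis) of the 9 tested tuft-cell genes (x axis) in the 3 comparisons between sorted populations, with bars for the SE; filled points were called and open points were not. The values against both RANK- groups lie between 3.50 and 6.51 for *Gfi1b*, *Gnat3*, *Gng13*, *Plcb2*, *Trpm5*, and *Avil*, while *Pou2f3* lies below 0 in both and *Dclk1* changes sign between them.

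To see whether the promoters of these genes carry the sequence bound by POU factors, the octamer ATGCAAAT was searched on both strands (reverse complement ATTTGCAT) in RefSeq promoter windows of 300 bases from GRCm38.p6. Of the 10 genes, 8 had windows (10 in all, without *Pou2f3* and *Il25*), and 0 of the 10 windows held the octamer, against 1.74% of 32851 windows. The 7-base parts of the octamer were then searched, a choice made after that result. ATGCAAA was found in the window of *Avil* and in 4.63% of all windows, and TGCAAAT in that of *Chat* and in 4.02% of all windows. Both parts lie within the octamer and overlap each other. The windows are shown because they are the only ones of these genes with a match, with the matched bases in capitals on either strand. *Avil* is at chr10:127000459-127000758 on the plus strand and *Chat* at chr14:32465860-32466159 on the minus strand.
Avil: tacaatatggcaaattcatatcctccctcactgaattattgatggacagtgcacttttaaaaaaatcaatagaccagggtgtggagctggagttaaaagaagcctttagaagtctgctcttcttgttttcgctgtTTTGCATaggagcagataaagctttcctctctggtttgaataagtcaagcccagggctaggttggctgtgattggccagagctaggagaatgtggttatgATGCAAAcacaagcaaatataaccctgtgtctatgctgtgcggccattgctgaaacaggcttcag
Chat: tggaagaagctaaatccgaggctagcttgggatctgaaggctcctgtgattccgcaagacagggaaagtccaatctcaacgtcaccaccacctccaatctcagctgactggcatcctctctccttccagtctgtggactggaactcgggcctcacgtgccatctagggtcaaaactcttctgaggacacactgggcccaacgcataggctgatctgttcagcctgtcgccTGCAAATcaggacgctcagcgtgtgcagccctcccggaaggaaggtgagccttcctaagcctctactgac
The *Avil* window holds 2 matches and the *Chat* window 1. A match describes the letters only, and no binding was measured in these libraries.

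Among the members, the order of levels in RANK+ TECs was *Gnat3* (6.22 ± 5.38 RPKM), *Avil* (5.30 ± 3.97), *Trpm5* (4.16 ± 2.23), *Plcb2* (4.15 ± 2.55), *Gng13* (4.08 ± 3.29), *Pou2f3* (3.18 ± 0.429), *Gfi1b* (1.76 ± 0.578), *Dclk1* (1.09 ± 0.329), *Chat* (0.296 ± 0.103), and *Il25* (0.177 ± 0.192; all SD, n = 3). From *Gnat3* to *Pou2f3* the libraries of neighbours overlapped, and so did those of *Gfi1b* and *Dclk1* and those of *Chat* and *Il25*. The libraries of *Pou2f3* were all above those of *Gfi1b*, and those of *Dclk1* all above those of *Chat*. In CCL21+ TECs the order was led by *Pou2f3* (10.3 ± 0.499) and *Dclk1* (1.62 ± 0.181), and no other member averaged more than 0.432 RPKM (*Gnat3*). In double-negative TECs *Pou2f3* (4.02 ± 1.15, n = 2) was followed by *Dclk1* (0.413 ± 0.08) and *Gnat3* (0.345 ± 0.0669), whose libraries overlapped. Among all tested genes, the mean of *Gnat3* in RANK+ TECs stood at the 73.0 percentile and that of *Chat* at the 21.6 percentile.

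The RANK+ libraries were not alike in these genes. Replicate 1 was the highest of the 3 for 8 of the 10 genes, all but *Chat* and *Il25*, and it was the highest for 65.8% of the 3306 genes called higher in RANK+ than in CCL21+ TECs. The excess of replicate 1 was larger in value for the taste-signalling genes and *Avil* than for the other members. The level in replicate 1 over the mean of replicates 2 and 3 was 3.78 for *Gnat3*, 3.61 for *Gng13*, 3.29 for *Avil*, 2.60 for *Plcb2*, and 2.34 for *Trpm5*. It was 1.66 for *Gfi1b*, 1.61 for *Dclk1*, and 1.25 for *Pou2f3*, beside a median of 1.29 over the 3306 genes. The same ratio was 1.11 for *Tnfrsf11a*, 1.26 for *Aire*, and 1.29 for *Fezf2*, another regulator of self-antigen genes, but 1.74 for *Ccl21a* and 1.77 for *Cd80*, a costimulatory ligand of mature mTECs. Among regulators of other lineages it was 2.10 for *Foxa2* and 5.73 for *Hnf4a*, the latter under 1 RPKM in every library. Of 9 marker lists of other cell types, all but the erythroid list were also highest in replicate 1, among them the myeloid (62.4, 19.3, and 23.2 RPKM summed), megakaryocyte (13.4, 1.83, and 4.48), and mesenchyme (32.0, 12.5, and 20.9) lists. Their part in the excess of replicate 1 was not tested. Without replicate 1, 8 of the 10 genes were still called against CCL21+ and 6 of 10 against double-negative TECs, *Dclk1* being the one lost.

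**Figure D3:**
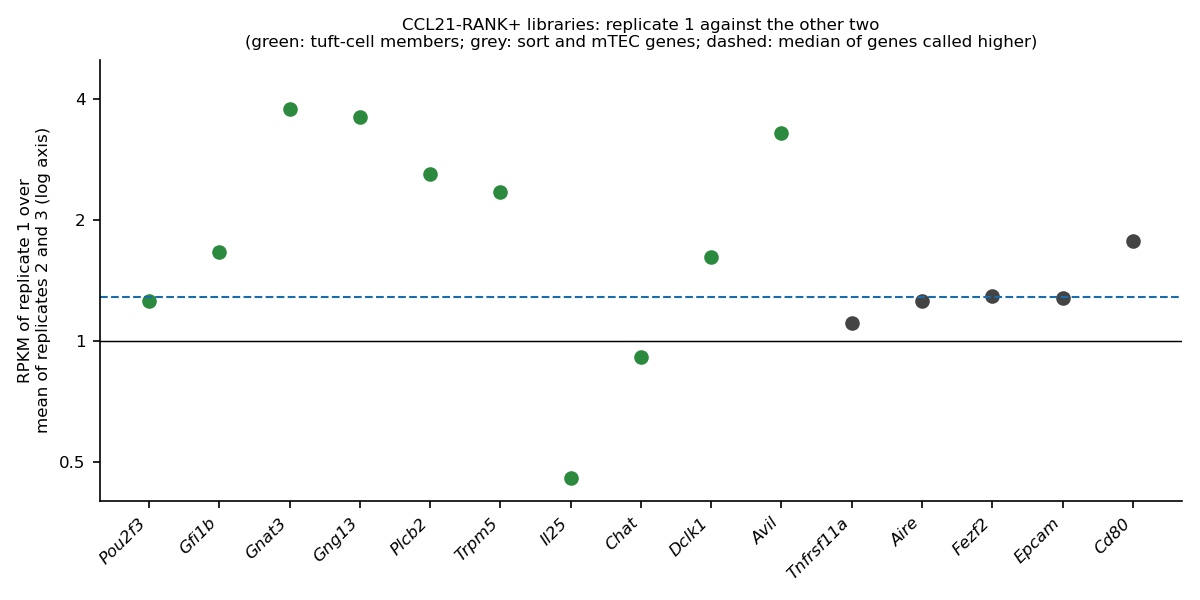
Ratio of the RPKM in RANK+ replicate 1 to the mean of replicates 2 and 3 (y axis, log scale) for the 10 tuft-cell genes (green) and 5 genes of the sort or of mTECs (grey); the solid line is a ratio of 1 and the dashed line the median of 1.29 over the genes called higher in RANK+ TECs. *Gnat3*, *Gng13*, and *Avil* lie above 3, and *Tnfrsf11a*, *Aire*, *Fezf2*, and *Epcam* lie between 1.11 and 1.29, with *Cd80* at 1.77.

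Over the 8 libraries, the 7 tested members other than *Pou2f3* and *Dclk1* correlated with each other at Pearson's r from 0.802 to 0.980 of log2 CPM (21 pairs, median 0.937). *Pou2f3* and *Dclk1* were set apart because they had other orders of groups, so high values among the 7 follow in part from that choice. *Pou2f3* correlated negatively with each of these 7, from -0.759 to -0.576, and *Dclk1* correlated with them at 0.0436 to 0.231. These values describe 3 groups whose libraries share a sort, and they carry no test.

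A further 53 tuft-cell genes, listed by role, were examined in the same fit, and 47 of them could be tested. In RANK+ against CCL21+ TECs, 22 were called higher and 4 lower, and against double-negative TECs 23 were called higher and 2 lower, beside shares over all tested genes of 15.4% in each direction in the former and of 14.4% and 15.1% in the latter. The median log2 fold changes were 3.15 and 3.46. Some of these genes, such as *Ffar3* and *Siglecf*, had enough counts to be tested through the RANK+ libraries only, which draws such medians upward. Calls in either direction numbered 26 and 25, beside 30.8% and 29.5% of all tested genes, and 18 and 19 without RANK+ replicate 1. In CCL21+ against double-negative TECs, 4 were called higher (*Spib*, *Colca2*, *Kctd12*, and *Ildr1*) against 4.35% of tested genes. Without either of the double-negative libraries, 2 were called.

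Of the 5 other regulators, 4 were called higher in RANK+ than in CCL21+ TECs and all 5 higher than in double-negative TECs, beside 15.4% and 14.4% of all tested genes. *Spib*, an Ets-family factor that RANK signalling is known to induce in mTECs, was at 146, 120, and 125 RPKM in the RANK+ libraries, between 12.9 and 13.4 in CCL21+, and at 5.78 and 6.27 in double-negative libraries. Its replicates lay close together in every group, and its log2 fold changes were 3.18 ± 0.11 and 4.31 ± 0.14 (adjusted p = 1.25e-07 and 1.23e-07 by edgeR). The homeobox genes *Hmx2* and *Hmx3* were close to absent outside RANK+ TECs. *Hmx3* was at 12.8, 6.15, and 7.83 RPKM there and at most 0.163 RPKM in any other library. *1810046K07Rik*, which encodes a coactivator of POU2F3 now named Pou2af2, was at 1.94, 0.652, and 0.912 RPKM in RANK+, had no count in 2 of 3 CCL21+ libraries, and did not exceed 0.117 RPKM outside RANK+ TECs (log2 fold changes 4.64 ± 1.16 and 3.92 ± 1.29). *Colca2*, the second such coactivator (Pou2af3), followed another order, with 4.54, 5.34, and 6.27 RPKM in CCL21+, 6.26, 7.76, and 7.50 in RANK+, and 2.96 and 2.88 in double-negative libraries. It was called higher in both reporter-positive groups than in double-negative TECs, and the reporter-positive groups overlapped.

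Of 11 taste receptor genes, 9 stayed under 1 RPKM in every library and *Tas2r131* had no count. Of the 6 that could be tested, 1 was called higher in RANK+ than in CCL21+ and than in double-negative TECs. That share of 16.7% is near the 15.4% and 14.4% of all tested genes. The gene called was *Tas1r3*, the shared subunit of sweet and umami receptors. *Tas1r3* was at 1.76, 0.832, and 0.571 RPKM in RANK+ and between 0.182 and 0.381 RPKM elsewhere. The bitter receptor gene *Tas2r108* reached 1.03 RPKM in RANK+ replicate 1 and was not called.

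Among 8 further signalling genes, *Gnb3* and *Plcg2* were called higher in RANK+ than in both other groups, beside 11.8% of all tested genes. *Gnb3*, the G protein beta subunit that pairs with *Gng13* in taste cells, was at 12.6, 5.41, and 3.51 RPKM in RANK+ and between 0.31 and 0.834 RPKM elsewhere, the same order of replicates as *Gnat3* and *Plcb2* (log2 fold changes 3.26 ± 0.41 and 4.23 ± 0.52, adjusted p = 0.000131 and 0.000121 by edgeR). *Itpr3*, the inositol trisphosphate receptor that acts between phospholipase C and TRPM5, was expressed in every group (12.9 to 26.2 RPKM) and was called in no comparison. The short-chain fatty acid receptor gene *Ffar3* had no count outside RANK+ TECs and 89 counts within them, at least 31.8-fold higher than CCL21+ TECs with 3 counts over the group as the limit, but its level was under 1 RPKM.

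Of 7 effector genes, 4 (*Alox5*, *Alox5ap*, *Ptgs1*, and *Pla2g4a*) were called higher and 1 (*Hpgds*) lower in RANK+ than in CCL21+ TECs, beside 15.4% of all tested genes in each direction, and 3 were called higher than in double-negative TECs, beside 14.4%. *Ptgs1*, a cyclooxygenase gene, was the one not called in the latter (adjusted p = 0.056 by edgeR). *Pla2g4a*, the phospholipase that releases arachidonic acid, was at 13.6, 11.4, and 11.9 RPKM there and between 0.891 and 1.32 RPKM elsewhere. *Alox5*, the 5-lipoxygenase gene, and *Alox5ap*, the gene of its activating protein, were called higher than in both other groups at lower levels, with 2.16, 1.51, and 0.889 RPKM for *Alox5*. *Ltc4s*, the leukotriene C4 synthase gene, had log2 fold changes of 2.42 ± 1.00 and 3.18 ± 1.22 that did not pass the test (adjusted p = 0.0658 and 0.0548 by edgeR). *Hpgds*, the prostaglandin D synthase gene, was called lower in RANK+ than in CCL21+ TECs (log2 fold change -1.14 ± 0.27, adjusted p = 0.0052 by edgeR), with 1.19, 0.692, and 0.623 RPKM against 1.84, 1.81, and 1.36 RPKM. The cytokine gene *Tslp* stayed at or below 0.511 RPKM.

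Of 22 structural and other marker genes, 11 were called higher and 3 lower in RANK+ than in CCL21+ TECs, beside 15.4% of all tested genes in each direction. *Lrmp*, an endoplasmic reticulum protein gene of taste and tuft cells, was at 9.17, 3.45, and 2.74 RPKM in RANK+ and between 0.295 and 0.704 RPKM elsewhere. The actin-bundling genes *Vil1* and *Espn* were higher than in both other groups, *Vil1* at 3.97, 0.781, and 1.06 RPKM and *Espn* at 12.0, 8.38, and 10.5 RPKM. *Atp2a3*, a calcium pump of the endoplasmic reticulum, was at 70.1, 34.2, and 39.3 RPKM against 0.914 to 1.92 RPKM elsewhere (log2 fold changes 5.00 ± 0.32 and 4.83 ± 0.38). *Krt8* and *Krt18*, keratin genes of simple epithelium that tuft cells share with most TECs, went the other way. *Krt18* was at 435, 480, and 394 RPKM in RANK+, between 1989 and 2546 RPKM in CCL21+, and at 2161 and 2300.2 RPKM in double-negative libraries. The phosphatase gene *Ptpn6* was between 6.75 and 14.4 RPKM in all libraries and was called lower only against CCL21+ TECs (log2 fold change -0.63 ± 0.19).

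**Figure D4:**
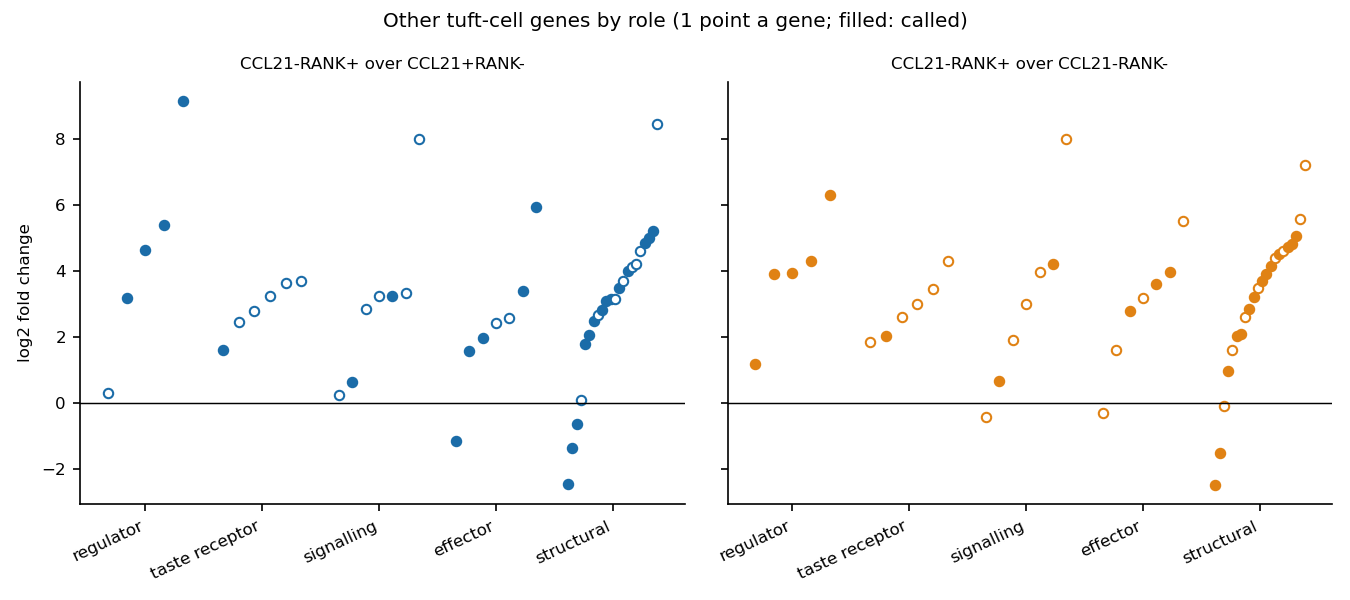
Log2 fold changes (y axis) of the 47 tested other tuft-cell genes by role (x axis), in RANK+ TECs over CCL21+ TECs (left) and over double-negative TECs (right); each point is a gene, filled where called. Most points of every role lie above 0, and the lowest are *Krt18* at -2.44 and -2.47. Some genes, such as *Ffar3*, had enough counts to be tested through the RANK+ libraries only.

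Several of these genes, such as *Vav1*, *Inpp5d*, *Fyb*, *Alox5*, and *Alox5ap*, are also expressed by leukocytes, and markers of leukocytes are given beside them. Of 7 myeloid markers, 5 (*Csf1r*, *Cd68*, *Lyz2*, *Adgre1*, and *Fcer1g*) were called higher in RANK+ than in both other groups, beside 11.8% of all tested genes. Their summed level was 62.4, 19.3, and 23.2 RPKM in RANK+ and at most 1.07 RPKM elsewhere, led by *Lyz2* at 52.3, 14.7, and 17.8 RPKM. The integrin gene *Itgam* was at 1.26, 0.322, and 0.186 RPKM and *Itgax* at most at 0.182 RPKM. Of 5 B cell markers, *Cd79b* and *Pax5* were called higher than in both other groups, beside 11.8% of all tested genes. Of 11 thymocyte markers, 2 (*Cd4* and *Lck*) were called higher than in CCL21+ TECs, a share of 18.2% near the 15.4% of all tested genes, and 5 higher than in double-negative TECs (14.4% of tested genes), with sums of 23.4, 10.1, and 19.2 RPKM in RANK+, 12.8, 5.38, and 7.19 in CCL21+, and 3.93 and 3.49 in double-negative libraries. In mesenchyme, *Pdgfrb* and *Col1a1* of 4 markers were called higher than in both other groups, beside 11.8% of all tested genes. *Pdgfra* was at most 0.122 RPKM in RANK+ TECs. Of 3 endothelial markers, 2 (*Pecam1* and *Cdh5*) had adjusted p-values of 0.00589 and 0.0170 against CCL21+ TECs by edgeR but stayed under 1 RPKM. The sort was for CD45-EpCAM+ cells. *Ptprc*, which encodes CD45, was between 0.177 and 0.576 RPKM in RANK+ and between 0.0351 and 0.193 RPKM in the other libraries. It was 2.82-fold higher in RANK+ than in CCL21+ TECs, whose libraries overlapped, and 8.08-fold higher than in double-negative TECs (adjusted p = 0.028 and 0.00304 by edgeR). It was not called because its mean was under 1 RPKM. The part of these other cell types in the levels of the tuft-cell genes was not tested.

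**Figure D5:**
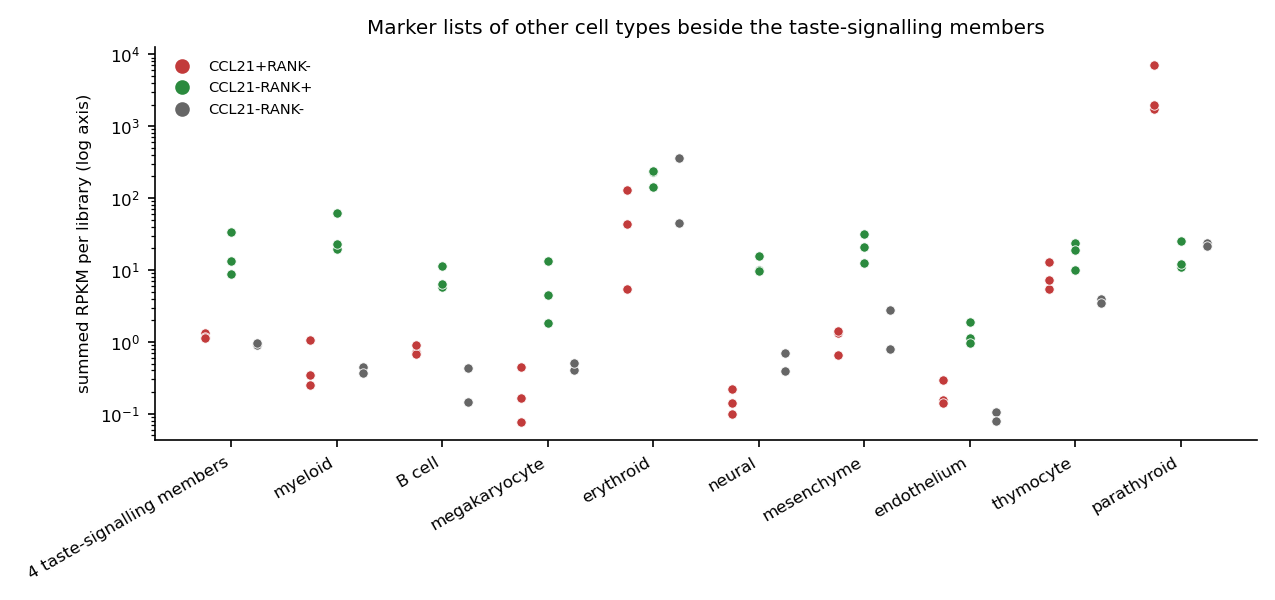
Summed RPKM per library (y axis, log scale) of the 4 taste-signalling members and of 9 marker lists of other cell types (x axis), coloured by sorted population; each point is a library. The myeloid, B cell, megakaryocyte, neural, mesenchyme, and endothelium lists are highest in the 3 RANK+ libraries, as the taste-signalling members are, whereas the parathyroid list is highest in the CCL21+ libraries (1750 to 7122).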

How the data were processed

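RNA-sequencing of 8 libraries of E17 CD45-EpCAM+ TECs was analysed. The authors deposited 1 table of expected counts per gene from RSEM, which divides reads that match several genes, and the values are neither normalized nor filtered. The submitters' processing notes name bcl2fastq 2.20, Trimmomatic, STAR 2.5.1, RSEM 1.3.1, and the mm10 build. For library preparation the study's methods give a TruSeq Stranded Total RNA kit, and for analysis CLC Genomics Workbench, but the labels give a NEBNext Ultra II Directional kit, and the strand setting of the counting is not given in the sources used here. Genes whose exons overlap those of a member on the opposite strand are therefore named beside it, except at *Dclk1*. The genes there, *Gm21954* and *Gm42609*, had no count in any library. Groups and replicate numbers were taken from the sample labels. The study's checklist calls its replicates biological, but nothing ties libraries of the same number to the same embryos.

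All 55450 identifiers matched GENCODE M21 (GRCm38), which gave positions and summed exon lengths for RPKM, calculated from the library totals. Expected counts were rounded and tested with edgeR 4.0.16 under R 4.3.3 (TMM, filterByExpr, quasi-likelihood test, Benjamini-Hochberg adjustment over 21451 genes) in 1 model of the 3 group means. The study's thresholds were used for calls (adjusted p under 0.05, over 1.5-fold, and over 1 RPKM), and the RPKM minimum was applied here to the group with the higher mean. Standard errors were derived from the quasi-likelihood F. The common biological coefficient of variation was 0.326. No pair of replicates matched within sampling noise (chi-square 80.6 to 282 per gene). Totals of 42751839 to 71625282 counts put 1 RPKM far above the floor of 3 counts.

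Named were all 10 members, other tuft-cell genes called in a comparison with the RANK+ group or most abundant in their role, genes of the sort, the most abundant and the called markers of other cells, and the 8 genes most correlated with *Pou2f3* and with *Trpm5* (log2 CPM, prior count 2, above 1 RPKM in a group, no predicted genes). Genes overlapping a member and single markers near 0 were named after their values were seen. The members and all lists were chosen with earlier results of these data known, so no p-value over a list is given.

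Alternatives were DESeq2 size factors, upper-quartile scaling, the Wald test of DESeq2 1.42.0, a minimum of 10 counts per library or no filter, separate fits for each pair of groups, a block for the replicate number, no RPKM minimum, removal of *Gm26917* and *Gm42418* (6.89% to 19.4% and 1.47% to 10.7% of counts, which lowers the RPKM of other genes), and leaving out each library. On counts simulated for RANK+ against CCL21+ TECs (20593 genes tested, 200 changed 4-fold), edgeR found 84.5% of the altered genes along with 11 unaltered ones. For RANK+ against double-negative TECs it found 78% along with 9 unaltered ones. The altered genes were drawn above a minimum mean CPM, all others had equal means in the 3 groups, and no RPKM minimum was applied. These shares therefore do not describe the calls made here or genes at low levels such as *Il25* and *Chat*. Promoter windows were taken from RefSeq (GRCm38.p6). Figures were drawn with matplotlib 3.10.9.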

Additional observations from a re-analysis of the deposited data

How the results depend on the processing

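Of 447 refits of single members, 401 kept direction and side of the 0.05 threshold, 25 lost significance, and 21 changed sign. The losses were *Pou2f3* against double-negative TECs (14), *Dclk1* (6), and *Chat* (2 and 3). All sign changes were in CCL21+ against double-negative TECs, in genes with no call there. For *Trpm5* (-0.02 in the main fit) the log2 fold change was 0.0339 with DESeq2 size factors, 0.0251 with upper-quartile scaling, 0.0358 by the DESeq2 Wald test, 0.0481 with at least 10 counts in every library, 0.0024 with only the libraries compared, and -0.13 to 0.15 when single libraries were left out. For *Avil* (-0.01) it was 0.043, 0.019, 0.0421, 0.0578, and 0.0066 in that order, 0.0037 without *Gm26917* and *Gm42418*, and -0.50 to 0.72 without single libraries. For *Gfi1b* (-0.54) and *Chat* (0.84) only leaving out a library changed the sign, with ranges from -4.44 to 3.89 and from -1.06 to 1.69. With at least 10 counts in every library, 5 of 10 members in place of 8 and 17 in place of 26 other tuft-cell genes were called in RANK+ against CCL21+ TECs. Of the members, *Gfi1b* and *Gng13* were then not tested, and the adjusted p of *Dclk1* was 0.0611 by edgeR. Without the RPKM minimum, 9 members and 39 other tuft-cell genes were called in RANK+ against CCL21+ TECs. Over all genes, 5897 were then called higher and 3823 lower, in place of 3306 and 3311. In CCL21+ against double-negative TECs, 657 to 2066 genes in place of 1720, and 2 to 6 other tuft-cell genes in place of 4, were called without single libraries. The lowest counts came without a double-negative library (772 and 657). Size factors of DESeq2 moved the median log2 fold change of all genes by 0.14 in RANK+ against double-negative TECs and by 0.09 against CCL21+ TECs.

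In CCL21+ and RANK+ TECs, the deviations of libraries of the same replicate number from their group means correlated at 0.126, 0.0485, and 0.0707, and each of these libraries correlated best with its own number in the other group, a hint from the data and not from the design. Not every pair was above 0.1, and with 2 double-negative libraries, whose deviations mirror each other, the number could not be checked there, so it was taken as a name. With it as a replicate block, 6616, 6324, and 1913 genes were called in the 3 comparisons, with 8, 7, and 2 members, and the log2 fold changes of *Trpm5* and *Avil* between both RANK- groups were 0.0936 and 0.378. At these depths counting error limits *Il25*, *Chat*, and the low groups of *Gfi1b* and *Gng13*.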

Other observations

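Regulators of other cell types that mTECs can resemble were read in the same libraries, since tuft-like cells are one of several such populations. Of 11 regulators, 7 were called higher in RANK+ than in CCL21+ TECs (*Hnf4g*, *Foxa2*, *Foxa3*, *Foxj1*, *Foxi1*, *Myog*, and *Sox8*) and 1 lower (*Gata3*), beside 15.4% of tested genes in each direction. Against double-negative TECs 8 were called higher, beside 14.4%. *Myog*, the muscle regulator, was the most abundant, at 65.5, 22.8, and 27.0 RPKM in the RANK+ libraries, 5.82, 1.83, and 1.29 RPKM in CCL21+, and 0.625 and 0.392 RPKM in double-negative libraries. *Foxj1*, the regulator of ciliated cells, was at 20.8, 7.64, and 5.18 RPKM in RANK+ libraries but also at 3.79 and 7.64 RPKM in double-negative libraries, with which it overlapped. *Gata3*, a regulator of parathyroid and T cell development, was at 29.2, 9.90, and 10.2 RPKM in CCL21+ libraries and at most 2.65 RPKM elsewhere. All 11 regulators were highest, among the RANK+ libraries, in replicate 1, as were 65.8% of the genes called higher in RANK+ than in CCL21+ TECs.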
